A study of Homo sapiens with 6 samples.

Results

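The ESR1 gene encodes estrogen receptor α (ERα), and the receptor bound its own gene and the DNA around it in every library. A bound region was taken as part of the locus when its summit lay inside the ESR1 span (GeneID 2099, chromosome 6, 151656672 to 152129619, GRCh38, forward strand) or within 150 kb of it. That window of 773 kb held 207 of the peaks in the 6 lists, which merged into 58 regions of the 175206 in the whole series. No mark of enhancer activity was measured, so these are described as ERα-bound regions and not as enhancers. The nearest regions at the window's edges were 121 kb upstream of the span (inside) and 204 kb upstream (outside), and 148 kb (inside) and 161 kb (outside) past its 3′ end.

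ERα is a transcription factor of the nuclear receptor family that is switched on by estradiol (E2). Its dimers bind estrogen response elements, mostly in distal enhancers, and in breast cells often where FOXA1 and GATA3 have opened the chromatin. ESR1 is transcribed from several alternative promoters, and ERα is known to bind within its own gene in hormone-dependent breast cancer cells.

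Binding was measured by chromatin immunoprecipitation and sequencing (ChIP-seq) with the anti-ERα antibody D8H8 in MDA-MB-453, an established human breast cancer line known to lack ERα. The cells carried an inducible Y537S, K303R or wild-type (WT) ERα, and all of them received 2 µg/mL doxycycline for 2 days, with 1 nM E2 or without it. The Y537S change sits in the ligand-binding domain and is known for activity in the absence of hormone, and the K303R change sits in the hinge of the receptor. The 6 groups are Y537S with E2, Y537S without E2, K303R with E2, K303R without E2, WT with E2 and WT without E2, each with 1 library. The labels do not say whether the serum was stripped of hormone or whether a line is 1 clone. Without replicates, a difference is between 2 libraries and not between conditions. Intervals in brackets are 95% ones for counting error alone.

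The reference table lists 6 ESR1 start sites, and the 2 that matter most for the bound regions are shown by the 250 bases before each, from RefSeq (GRCh38.p14, forward strand). Start site 1 opens the gene span and lies 1578 bp before the summit of the nearest region, which had the lowest Y537S over WT ratio of the locus. Start site 5 lies 151 kb further in and is the only start site whose window is overlapped by a bound region. Capitals mark matches to the searched motifs.
Start site 1, chr6:151656422-151656671: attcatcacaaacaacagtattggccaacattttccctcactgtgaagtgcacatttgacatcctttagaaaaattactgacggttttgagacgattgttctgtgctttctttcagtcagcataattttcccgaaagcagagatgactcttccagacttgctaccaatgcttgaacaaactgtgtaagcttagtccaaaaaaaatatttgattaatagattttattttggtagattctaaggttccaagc
Start site 5, chr6:151807432-151807681: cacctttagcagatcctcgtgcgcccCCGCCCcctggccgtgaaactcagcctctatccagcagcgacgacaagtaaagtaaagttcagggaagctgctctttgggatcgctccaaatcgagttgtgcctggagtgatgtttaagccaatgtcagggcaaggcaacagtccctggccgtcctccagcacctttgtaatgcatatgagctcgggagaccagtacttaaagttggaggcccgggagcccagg

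The windows searched run from 250 bases before to 50 bases after each of the 6 starts, on both strands. A full palindromic estrogen response element was in none of the 6, and in 0.0572% of 34961 promoter windows of that length. Its single arm (GGTCA, which is also part of the full element) was in the window of start site 2 only, 29 bases before it, against 37.3% of all windows. The Sp1 motif (GGGCGG) was in those of start sites 4 and 5, 74 and 224 bases before the start and on the reverse strand, against 45.0% of all windows. The forkhead motif (TGTTTAC) was in none of the 6, against 3.42% of all windows. The motif that GATA factors are known to bind (AGATAA) was also in none, against 10.3%. Neither the AP-1 motif (TGANTCA) nor the AP-2 motif (GCCNNNGGC) was in any of the 6, against 7.68% and 23.2% of all windows. The window of start site 1 was 36.3% G and C and that of start site 5 was 58.3%. A match is only a run of letters, and the sequence under the other bound regions was not analysed here.

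The locus was bound along its whole length and at the density of an average gene. Its 58 regions make 7.50 per 100 kb, against a median of 7.49 over the windows of 19817 protein-coding genes. Of them, 12 lay upstream of the span, 30 inside it and 16 past its 3′ end. By gene, 8 lay in the span of CCDC170, a neighbour that encodes a coiled-coil protein, and 18 in that of SYNE1, which encodes the nuclear envelope protein nesprin-1 and overlaps the 3′ end of ESR1. Binding alone does not assign a region to a gene. Exon and intron positions were not analysed here.

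The number of listed peaks was 32 with E2 and 35 without E2 in Y537S, 32 and 32 in K303R, and 38 and 38 in WT. Of the 58 regions, 20 were in all 6 lists, 24 in 2 to 5 lists and 14 in 1 list. The share in all 6 lists was 34.5% here, against 38.7% over the series. A region had a peak in 38 of 58 cases for Y537S, 36 for K303R and 46 for WT, and 23 regions had one for all 3 receptors. The WT lists were also the longest over the whole series, at 121718 peaks with E2 and 125850 without E2. The others held 112464 and 117193 in Y537S, and 107137 and 106186 in K303R. No share over the series stands beside the counts by receptor, so they do not show that this locus differs from it. The regions seen once were weak, with 9 to 20 fragments at the summit, so their absence from the other lists does not show that binding was absent there. The strongest ESR1 peak ranked 5717 among all peaks of its library for Y537S with E2 and 6726 without E2, 3153 and 2368 for K303R, and 2555 and 2181 for WT.

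**Figure D1:**
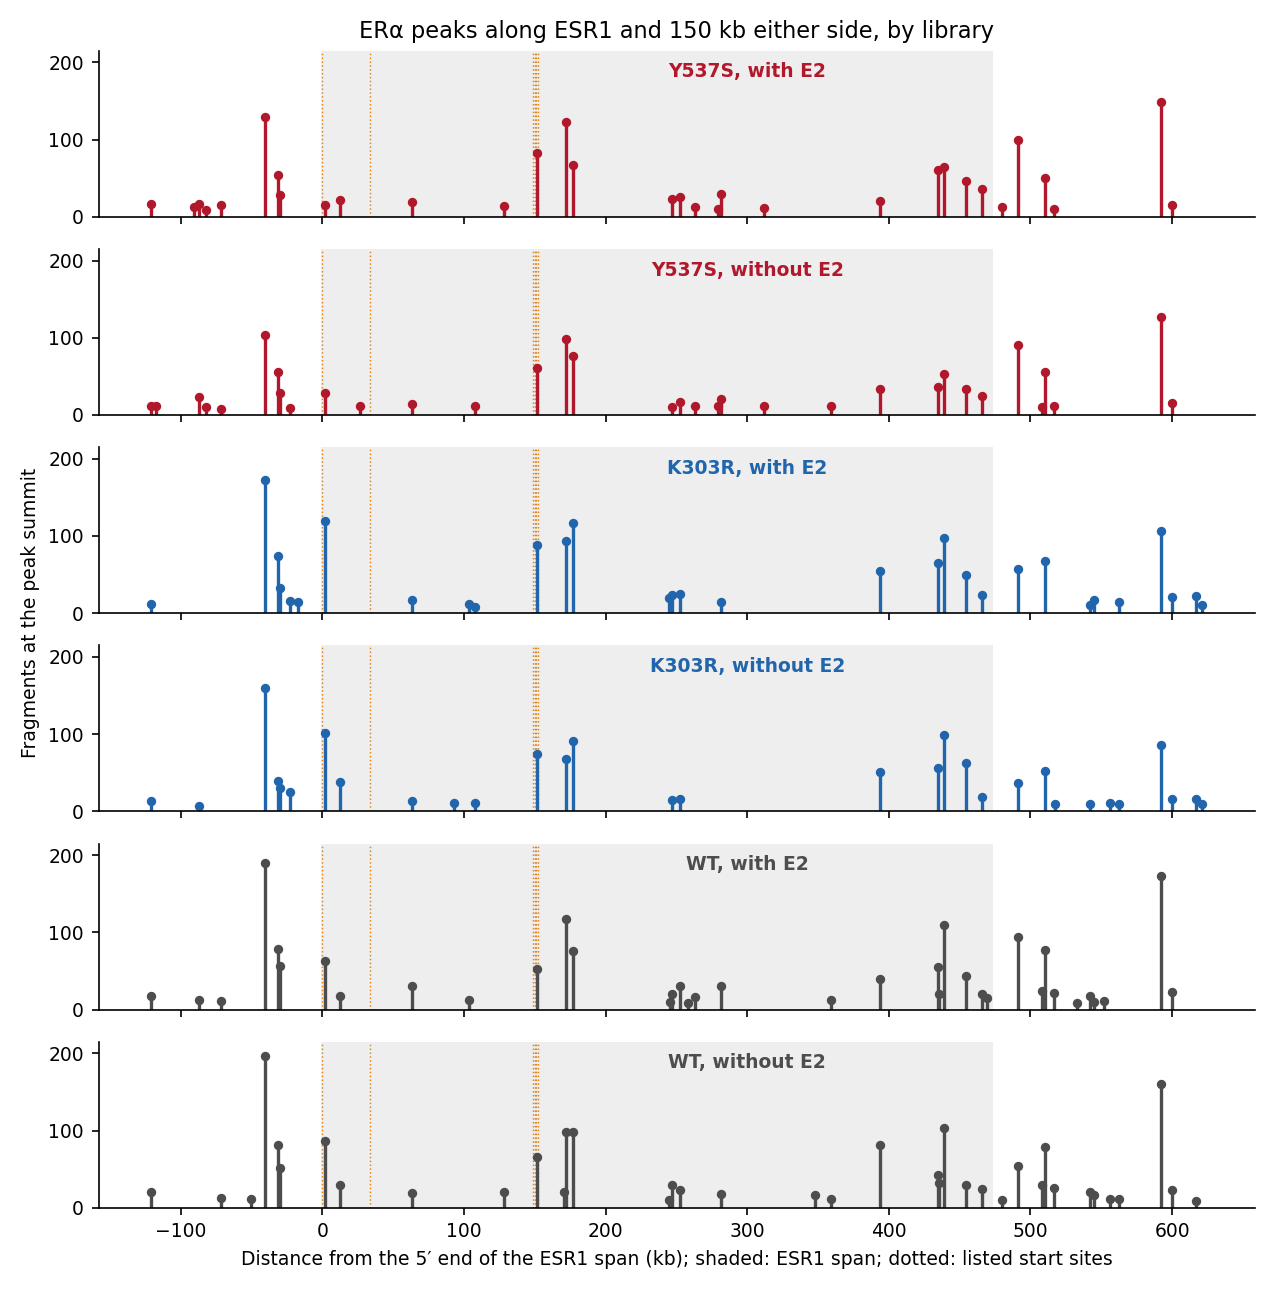
Fragments at the summit of each listed peak (vertical axis, unscaled) by distance from the 5′ end of ESR1 in kb, with 1 panel per library; shading marks the ESR1 span and dotted lines the 6 start sites. The same groups of tall peaks, near −40 kb, 172 kb, 439 kb and 592 kb, stand in each panel, while the peak at 1.58 kb is low in both Y537S panels.

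Levels were compared at regions present in all 6 lists with a mean of at least 50 summit fragments, called well covered here (33626 in the series, 11 at ESR1). The number of fragments at a summit was recovered from the authors' fold and p-value. Ratios between 2 libraries were divided by the median ratio of all well-covered regions. A call of higher or lower needed a ratio past 1.5-fold together with a 99% exact counting interval that left out 1. The 11 regions are 2 upstream of the span, 6 inside it and 3 past its 3′ end, and they are named by their distance from the 5′ end.

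The region 1.58 kb inside the gene had the lowest Y537S over WT ratio of the 11, with and without E2. It spans 151657975 to 151658887 on chromosome 6 and is the bound region nearest start site 1. Its summit held 15 fragments with E2 and 28 without E2 in Y537S, 120 and 101 in K303R, and 63 and 86 in WT. K303R was highest with each treatment, WT lay between and Y537S was lowest. The share of all well-covered regions with that order is not given here. Y537S over WT was 0.226 (0.120 to 0.402) with E2 and 0.343 (0.215 to 0.531) without E2, both called lower. K303R over WT was 2.09 (1.53 to 2.88) with E2 and 1.56 (1.16 to 2.11) without E2, both called higher. On the authors' fold, which divides by the local background, the log2 ratio of Y537S over WT was −1.29 with E2 and −0.48 without E2, and only the value with E2 was past 1.5-fold. The K303R calls ended on that fold, at log2 ratios of 0.29 with E2 and 0.15 without E2. The local background here moved with the fragments, at 4.79 with E2 and 4.33 without E2 in K303R, and 2.56 and 3.52 in WT. In Y537S it was 1.12 and 0.987, the lowest of each library. Where a call ended on that fold, here or below, the fold cannot tell an absent difference from one that the background divides out. The 6 summits lay within 83 bp of each other, so the position was shared while the level differed. Relative to the median of chromosome 6, which was low in Y537S, Y537S over WT was still 0.283 with E2 and 0.435 without E2.

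The region at 152 kb, around start site 5, was the widest of the locus. It spans 151807274 to 151808398, or 1125 bp, and its peaks were 900 to 1091 bp wide. Exon positions were not analysed, so whether fragments of the introduced ERα sequence add to the counts at this region was not tested. Its summit held 83 fragments with E2 and 61 without E2 in Y537S, 88 and 74 in K303R, and 52 and 66 in WT. WT with E2 was the lowest of the 6, also after scaling, and E2 over no E2 was 1.21 in Y537S, 0.986 in K303R and 0.778 in WT, with no call. K303R over WT was 1.86 (1.30 to 2.67) with E2, called higher, and 1.49 (1.05 to 2.11) without E2. The call ended on the authors' fold, with a log2 ratio of 0.076. Y537S over WT was 1.52 (1.06 to 2.19) with E2 and 0.973 (0.676 to 1.40) without E2, neither called. The right ends of the 6 peaks lay within 101 bp of each other. The summit lay 46 bp before the start in Y537S without E2 and 371 to 518 bp after it in the other 5 libraries.

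**Figure D2:**
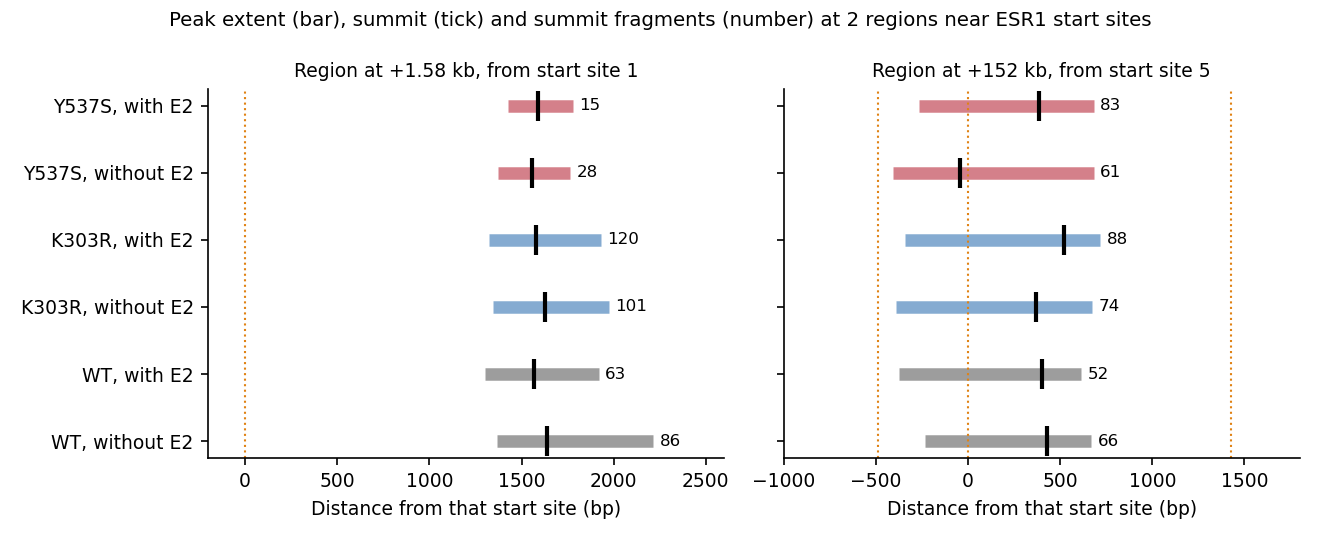
Extent of each library's peak (bar), its summit (black tick) and its summit fragments (number) at the regions at 1.58 kb and 152 kb, by distance in bp from start sites 1 and 5; dotted lines mark start sites. At 1.58 kb the Y537S peaks are the narrowest and hold 15 and 28 fragments, while at 152 kb all 6 peaks cover start site 5.

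A pair of regions lay further inside the gene. The region at 172 kb (151828396 to 151829115) held 123 fragments with E2 and 99 without E2 in Y537S, 94 and 68 in K303R, and 118 and 98 in WT. It had no call in any of the 7 comparisons, and its summits lay within 42 bp. The region at 177 kb (151832973 to 151833934) held 67 with E2 and 77 without E2 in Y537S, 117 and 91 in K303R, and 76 and 98 in WT. K303R over WT was 1.69 (1.25 to 2.28) with E2 there, called higher, and 1.23 (0.917 to 1.66) without E2. In the Y537S and K303R libraries without E2 this region was listed as 2 peaks, and the higher one was used.

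A second pair lay near the 3′ end of the gene. The region at 439 kb (152095189 to 152095793) held 64 fragments with E2 and 53 without E2 in Y537S, 97 and 99 in K303R, and 110 and 104 in WT. Y537S over WT was 0.553 (0.400 to 0.760) with E2 and 0.537 (0.378 to 0.754) without E2, both called lower. Both calls ended on the authors' fold, at log2 ratios of −0.41 with E2 and −0.092 without E2. The region at 435 kb (152091451 to 152091993) held 60 and 36 in Y537S, 65 and 56 in K303R, and 55 and 43 in WT. There K303R over WT was 1.30 (0.891 to 1.89) with E2 and 1.73 (1.14 to 2.64) without E2, and the value without E2 was called higher. The neighbours thus had different calls against WT, at 439 kb for Y537S and at 435 kb for K303R, and the difference between them was not tested.

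Upstream, the strongest region of the locus lay 40.3 kb before the gene, inside CCDC170 and the lncRNA gene LOC107986528 (151616033 to 151616718). It held 129 fragments with E2 and 103 without E2 in Y537S, 172 and 160 in K303R, and 190 and 197 in WT. Y537S over WT was 0.646 (0.512 to 0.812) with E2 and 0.551 (0.430 to 0.702) without E2, both called lower. Neither call was made on the authors' fold, where the log2 ratio was 0.15 with E2, turned round, and −0.082 without E2. K303R over WT was 0.992 (0.803 to 1.23) with E2 and 1.08 (0.870 to 1.34) without E2. The region 31.0 kb upstream, between genes (151625372 to 151626026), held 54 and 56 in Y537S, 74 and 39 in K303R, and 79 and 82 in WT, with no call. E2 over no E2 in K303R was 1.57 (1.05 to 2.38) there, and K303R over WT without E2 was 0.632 (0.420 to 0.936). With scaling by the lowest local background both were called, at log2 ratios of 1.02 and −1.05, and both rest on the K303R library without E2.

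Past the 3′ end, 3 well-covered regions lay inside SYNE1. The region at 592 kb (152248590 to 152249267) was the second strongest, with 149 fragments with E2 and 127 without E2 in Y537S, 107 and 86 in K303R, and 173 and 160 in WT. It had no call in any comparison. K303R over WT was 0.678 (0.528 to 0.868) with E2, just inside the 1.5-fold limit. The region at 510 kb (152166368 to 152167014) held 50 and 56 in Y537S, 68 and 52 in K303R, and 77 and 79 in WT, and Y537S over WT was 0.617 (0.424 to 0.893) with E2, called lower. That call ended on the authors' fold, at a log2 ratio of −0.011.

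The region at 492 kb, also in SYNE1 (152147880 to 152148637), was the only well-covered one with a call for E2. It held 99 fragments with E2 and 90 without E2 in Y537S, 57 and 37 in K303R, and 94 and 54 in WT. WT without E2 and both K303R libraries were low, and WT reached the Y537S level with E2. E2 over no E2 was 1.72 (1.22 to 2.45) in WT, called higher, 0.979 (0.728 to 1.32) in Y537S and 1.28 (0.830 to 1.99) in K303R. Y537S over WT was 1.00 (0.747 to 1.34) with E2 and 1.75 (1.24 to 2.51) without E2, and the value without E2 was called higher. Both calls share the WT library without E2, and both ended on the authors' fold, at log2 ratios of 0.19 for E2 in WT and 0.19 for Y537S over WT without E2. The local background moved with the fragments there, at 4.77 with E2 and 2.98 without E2 in WT. The E2 ratio in Y537S over that in WT was 0.570 (0.367 to 0.885), and its 99% interval, 0.320 to 1.02, included 1.

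Few of the regions at ESR1 had a call for E2. In WT, 1 of 11 was called higher and 0 lower, against 3.38% and 1.81% of all well-covered regions. In Y537S, 0 of 11 were called in either direction, against 0.434% higher and 0.476% lower. In K303R, 0 of 11 were called, against 5.28% and 2.37%. Summed over the 11 regions, E2 over no E2 was 1.01 (0.918 to 1.11) in Y537S, 1.02 (0.929 to 1.11) in K303R and 1.01 (0.923 to 1.10) in WT. All 3 intervals lie between 0.918 and 1.11. With 11 regions, counts of 0 or 1 cannot be told apart from those shares. None of the 22 region-wise differences of an E2 ratio between a mutant and WT had a 99% interval that left out 1. At 1.58 kb the ratio was 0.477 (0.237 to 0.924) in Y537S, 0.985 (0.750 to 1.30) in K303R and 0.723 (0.514 to 1.01) in WT, with no call.

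**Figure D3:**
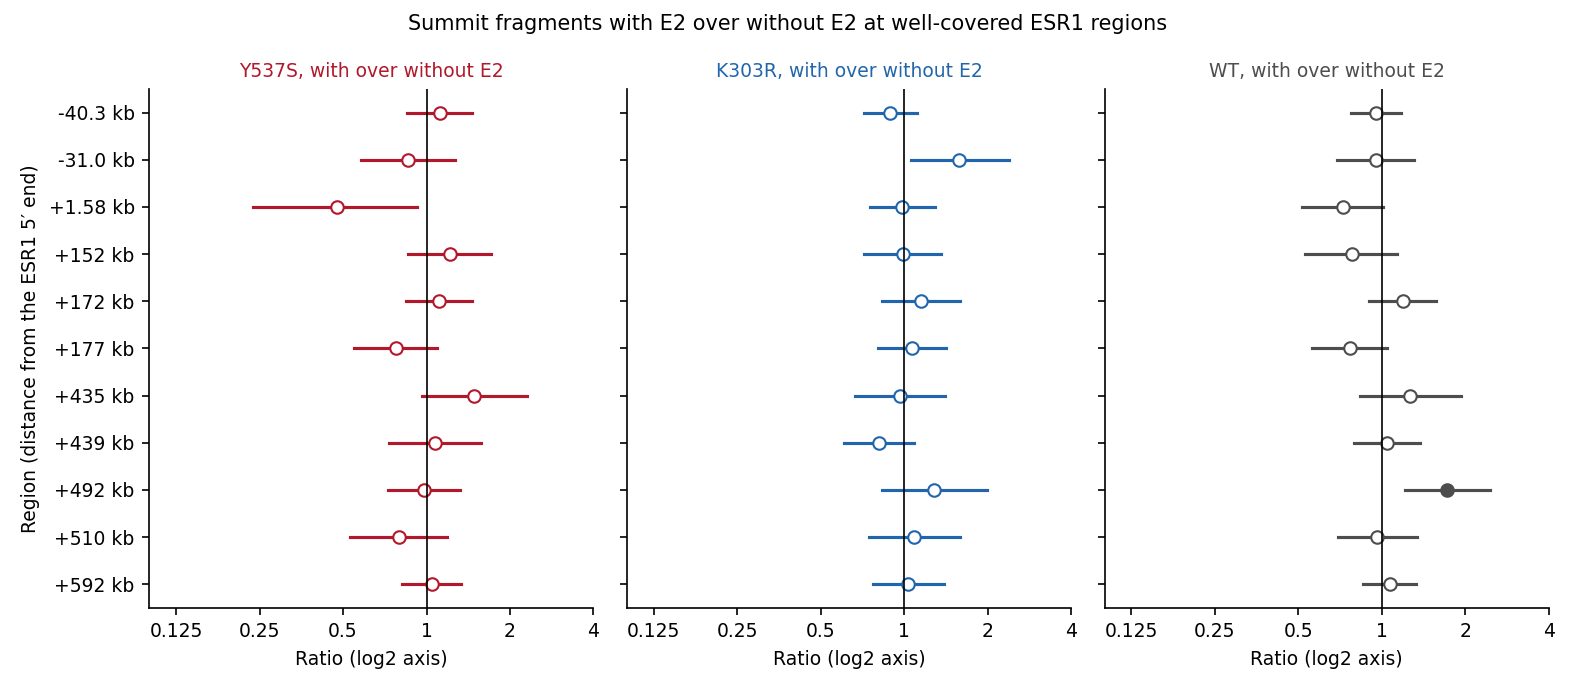
Ratio of summit fragments with E2 over without E2 (horizontal log2 axis) at the 11 well-covered regions, top to bottom along the gene, for Y537S, K303R and WT; bars are 95% counting intervals and filled points are calls. The only filled point is the region at 492 kb in WT, at 1.72.

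The mutants had more calls against WT, and those of Y537S were mostly lower while those of K303R were higher, though scaling by the lowest local background gave K303R 3 higher and 4 lower over both treatments. With E2, Y537S was lower than WT at 4 of 11 regions (−40.3, 1.58, 439 and 510 kb) and higher at 0, against 9.5% lower and 10.8% higher over all well-covered regions. Without E2 it was lower at 3 (−40.3, 1.58 and 439 kb) and higher at 1 (492 kb), against 10.7% and 12.6%. K303R with E2 was higher at 3 regions (1.58, 152 and 177 kb) and lower at 0, against 7.72% higher and 12.7% lower. Without E2 it was higher at 2 (1.58 and 435 kb) and lower at 0, against 6.98% and 10.8%. The regions at 1.58 and 435 kb reached the coverage limit only with the K303R libraries counted. The comparisons with and without E2 share no library, so the calls at −40.3, 1.58 and 439 kb in Y537S and at 1.58 kb in K303R were each made in 2 separate library pairs. A difference of the cells, or for Y537S of the tag in its peak names, would recur in both pairs. The 2 pairs are thus not replicates. With scaling by the lowest local background, the Y537S calls at −40.3 and 510 kb with E2 and the K303R calls at 1.58 and 435 kb without E2 were not made. On the authors' fold the calls left against WT were 1.58 kb in Y537S with E2, 177 kb in K303R with E2 and 435 kb in K303R without E2, so that no region was called in both pairs. The comparisons of Y537S and of K303R share their WT library. Without the region at 1.58 kb, K303R had 3 calls over both treatments instead of 5.

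Summed over the 11 regions, Y537S over WT was 0.781 (0.714 to 0.854) with E2 and 0.776 (0.706 to 0.851) without E2. K303R over WT was 1.07 (0.981 to 1.16) with E2 and 1.07 (0.981 to 1.18) without E2, where scaling by the lowest local background turned the summed log2 ratio to −0.29. By position along the locus, K303R over WT inside the span was 1.34 (1.19 to 1.52) with E2 and 1.31 (1.16 to 1.49) without E2, and past the 3′ end 0.739 (0.623 to 0.876) and 0.794 (0.654 to 0.960). Upstream it was 1.00 (0.840 to 1.20) and 0.948 (0.786 to 1.14). With scaling by the lowest local background it was 1.26 with E2 and 1.00 without E2 inside the span, and 0.696 and 0.605 past the 3′ end. On the authors' fold it was 1.13 and 1.13 inside the span, and 1.05 and 1.01 past the 3′ end. At 592 kb with E2 the local background, by which that fold divides, was 4.06 in K303R and 6.30 in WT. The background moved with the fragments, so that fold cannot decide whether K303R was lower past the 3′ end. The sums inside the span include the region at 1.58 kb, which had the highest ratio of the span with E2 (2.09). Sums inside the span without that region are not given here.

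**Figure D4:**
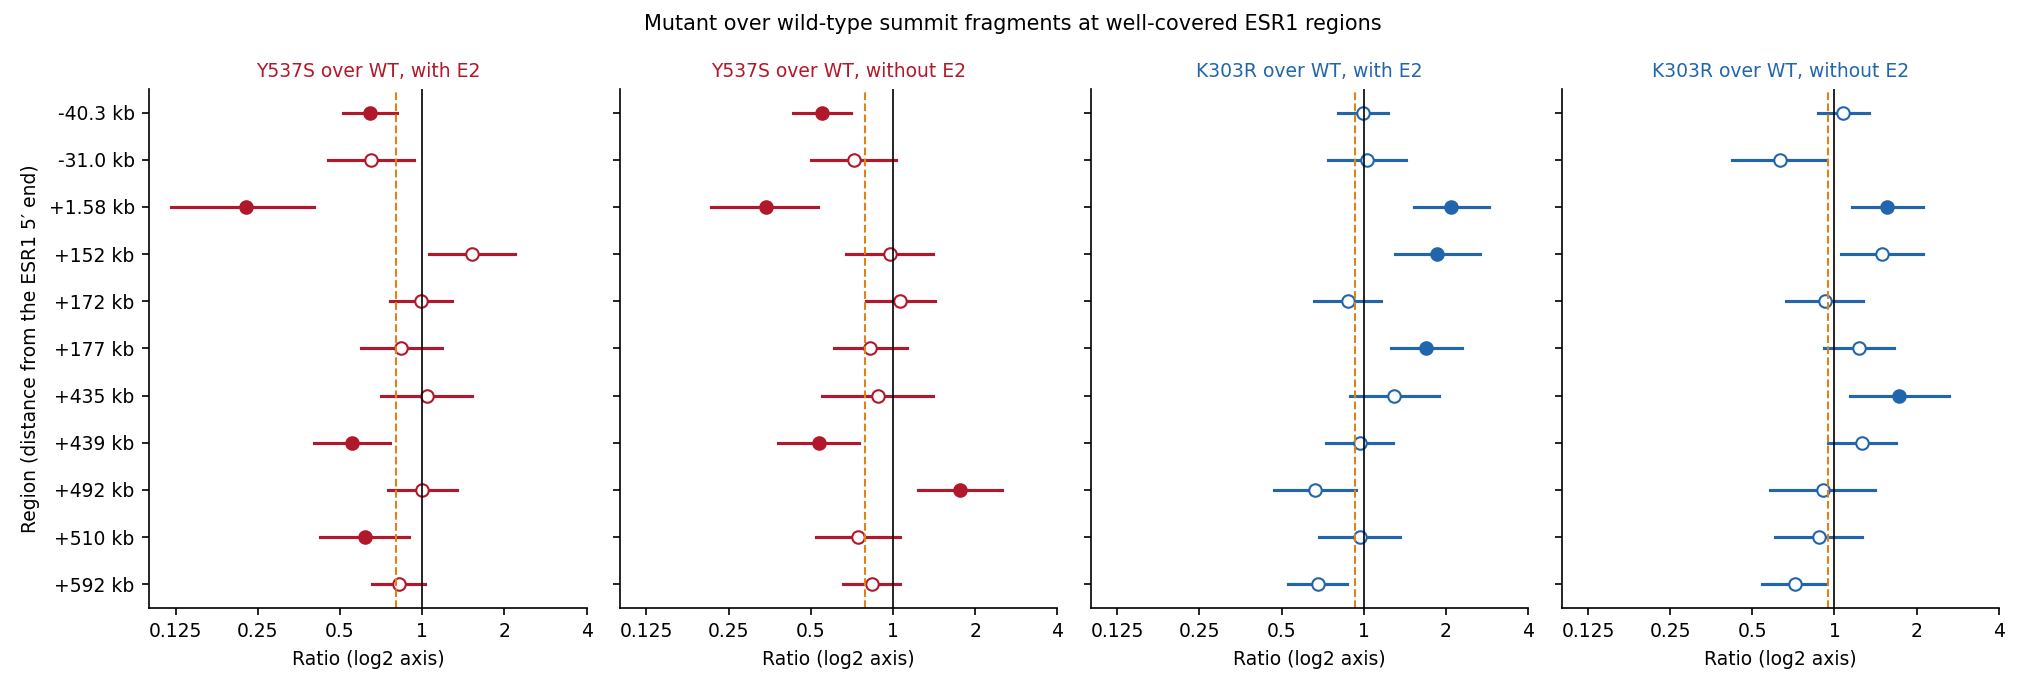
Ratio of summit fragments in Y537S or K303R over WT (horizontal log2 axis), with and without E2, at the 11 well-covered regions, top to bottom along the gene; bars are 95% counting intervals, filled points are calls and the dashed line is the median of the rest of chromosome 6. The region at 1.58 kb stands at 0.226 and 0.343 in Y537S and at 2.09 and 1.56 in K303R.

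Chromosome 6, which carries ESR1, was low in the Y537S libraries as a whole. The median log2 ratio of Y537S over WT was −0.29 with E2 and −0.27 without E2 at the 11 ESR1 regions, against −0.32 and −0.34 over the other 1632 well-covered regions of the chromosome. The next lowest chromosome was X, at −0.24 and −0.23. Over chromosome 6, 24.5% of regions with E2 and 25.8% without E2 were called lower, and 2.5% and 3.29% higher. The 4 of 11 and 3 of 11 ESR1 regions called lower are close to these shares. The 97 other regions within 5 Mb of ESR1 were less low, at −0.20 and −0.13. K303R over WT had a chromosome 6 median of −0.10 and −0.08.

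Set against the chromosome, the locus as a whole was not lower in Y537S. Centred on the chromosome 6 median, the summed log2 ratio was −0.032 with E2 and −0.023 without E2, and the calls over both treatments were 2 lower, at 1.58 kb with each treatment, and 2 higher, at 152 kb with E2 and at 492 kb without E2. Relative to that median Y537S over WT was 0.808 with E2 and 0.698 without E2 at −40.3 kb, 0.692 and 0.681 at 439 kb, 1.90 and 1.24 at 152 kb, and 1.25 and 2.23 at 492 kb. Nearer regions were less low than the locus. Their summed Y537S over WT was 0.861 with E2 and 0.855 without E2 within 5 Mb, and 0.862 and 0.945 within 1 Mb (12 regions). At ESR1 it was 0.781 and 0.776. The local background moved with the peaks. Its median over the 11 regions in Y537S over WT was 0.740 with E2 and 0.673 without E2, against 0.766 and 0.765 over chromosome 6, on a scale where all regions have a median of 1. On the authors' fold, the summed log2 ratio was −0.054 with E2 and −0.048 without E2. The Y537S lists also carry another tag in their peak names (20200821) than the K303R and WT lists (20200710), so the receptor and whatever the tag records cannot be told apart. The control library is not given, so a peak's own fragments may be part of its local background. That the background moved with the peaks may thus not be a separate observation. The part of the background in the ratios was not tested.

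**Figure D5:**
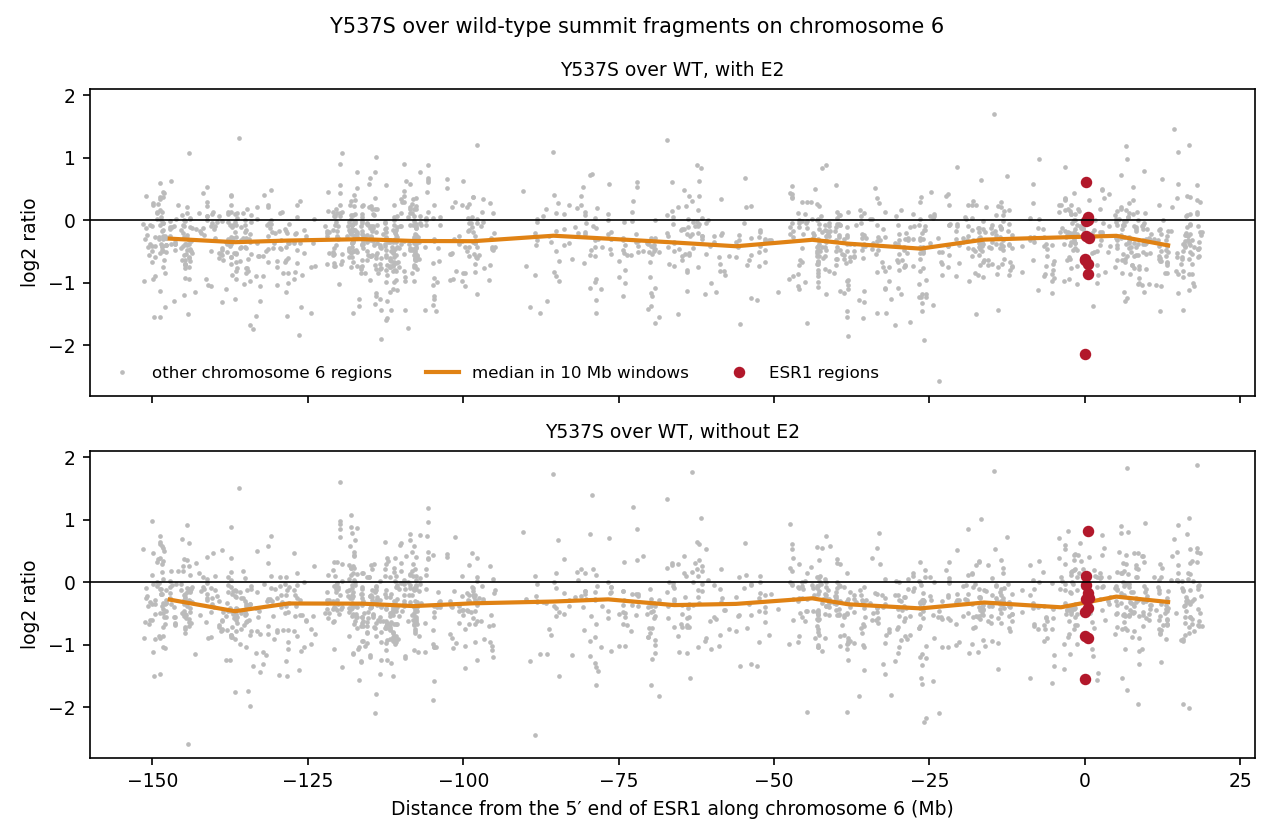
Log2 ratio of summit fragments in Y537S over WT at well-covered regions of chromosome 6, by distance from the 5′ end of ESR1 in Mb, with E2 (above) and without E2 (below); the line is the median in windows of 10 Mb and the large points are the 11 ESR1 regions. The line stays below 0 over the whole chromosome, and the lowest ESR1 point in each panel is the region at 1.58 kb.

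The introduced construct expresses ERα and so carries ESR1 coding sequence, so fragments of it would align to the exons of the gene. The local background of ESR1 peaks was below that of all peaks in each library. Its median was 1.12 fragments with E2 and 1.23 without E2 in Y537S, 1.52 and 1.65 in K303R, and 1.57 and 1.74 in WT, against 1.67 to 2.11 over all peaks of the libraries. The highest local background of any ESR1 peak was 9.25, at the region at 172 kb. The medians are over peaks spread along the whole window, of which 8 to 17 per library sat at the lowest background of that library. They thus cannot show fragments gathered on a few exons. Whether single peaks, such as those at 152 kb around start site 5, lie on exons of the construct was not tested.

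Of the 47 regions that were not well covered, 9 were in all 6 lists. The region at 394 kb (152050241 to 152050880) held 21 fragments with E2 and 33 without E2 in Y537S, 54 and 51 in K303R, and 40 and 82 in WT. Its mean was just under the limit, and E2 over no E2 in WT was 0.482 (0.321 to 0.711). The region at 455 kb (152110815 to 152111611) held 46 and 34 in Y537S, 50 and 63 in K303R, and 43 and 29 in WT, and K303R over WT was 1.27 (0.831 to 1.96) with E2 and 2.89 (1.83 to 4.65) without E2. The region 30.1 kb upstream held 28 and 28 in Y537S, 33 and 30 in K303R, and 57 and 51 in WT, so that WT was highest.

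A total of 19 regions were listed for 1 receptor only: 6 for Y537S, 4 for K303R and 9 for WT. No share over the series is given for these counts, and the WT lists were the longest. The 5 with the highest −log10 p were weak. WT alone had the region at 348 kb, with 16 fragments without E2, and the one at 436 kb, with 20 with E2 and 32 without E2, which lies beside the region at 435 kb. K303R alone had the region 16.8 kb upstream, with 15 fragments with E2. Y537S alone had those 90.7 and 117 kb upstream, with 12 fragments with E2 and 11 without E2.

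The genes of the other steroid receptors of the NR3 family, to which ERα belongs, were examined over the same window around each gene (8 genes, 67 well-covered regions). In Y537S over WT, 13 regions were lower and 0 higher with E2, and 17 lower and 3 higher without E2. These are 19.4% lower with E2, against 9.5% lower and 10.8% higher over all well-covered regions, and 25.4% lower and 4.48% higher without E2, against 10.7% and 12.6%. In K303R over WT, 8 were lower and 1 higher with E2 (11.9% and 1.49%, against 12.7% and 7.72%), and 6 were lower and 2 higher without E2 (8.96% and 2.99%, against 10.8% and 6.98%). The list's median log2 ratio in Y537S over WT was −0.13 and −0.17, against 0 over all regions, and it moved to −0.0068 and 0.048 when libraries were scaled by their lowest local background. PGR, which encodes the progesterone receptor and is a classical ERα target, had 5 of 8 regions lower in Y537S with E2 and 5 without E2, at medians of −0.76 and −0.74, against 9.5% and 10.7% of all well-covered regions called lower. ESR2, which encodes ERβ, had 1 of 5 lower with each treatment, and the region held 62 fragments with E2 and 53 without E2 in Y537S, against 139 and 134 in WT.

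Transcription regulators known to act on ESR1 formed a second list (10 genes, 85 well-covered regions). Its members were GATA3, FOXA1, TFAP2A, TFAP2C, FOXO3, FOXM1, TWIST1, SNAI1, ZEB1 and EZH2. In Y537S over WT, 12 regions were lower and 6 higher with E2, and 15 lower and 6 higher without E2. These are 14.1% and 7.06% with E2, against 9.5% and 10.8% over all well-covered regions, and 17.6% and 7.06% without E2, against 10.7% and 12.6%. In K303R over WT, 2 were lower and 6 higher with E2 (2.35% and 7.06%, against 12.7% and 7.72%), and 3 were lower and 8 higher without E2 (3.53% and 9.41%, against 10.8% and 6.98%). The list's median log2 ratio in Y537S over WT was −0.056 with E2 and −0.13 without E2, against 0 over all regions, and turned to 0.064 and 0.084 when scaled by the lowest local background. In K303R over WT it was 0.13 with E2 and 0.15 without E2, and 0.045 and −0.24 under that scaling. FOXO3, a forkhead factor whose gene is also on chromosome 6, had 9 of 19 regions lower in Y537S with E2 and 8 without E2, at medians of −0.57 and −0.51, against 24.5% and 25.8% of regions called lower on chromosome 6. GATA3, a luminal factor, had 2 of 8 higher in Y537S with each treatment, and 2 lower with E2 and 1 without E2. FOXA1, the pioneer factor that opens chromatin for ERα, had 1 of 12 higher with each treatment, and 1 lower with E2 and 3 without E2. TFAP2A, on chromosome 6 as well, had none of its 6 regions called in Y537S and 2 higher in K303R without E2. On chromosome 6, 4.99% of regions were called higher in that comparison. The TFAP2A median there turned from 0.27 to −0.12 when scaled by the lowest local background. SNAI1 had 3 of 14 regions higher and 0 lower in K303R with each treatment. Its median without E2 turned from 0.31 to −0.080 under that scaling, and with E2 it moved from 0.27 to 0.18. For E2 over no E2, the NR3 list had 2 of 67 regions higher and 0 lower in Y537S, 4 and 1 in K303R, and 2 and 1 in WT. The other list had 0 of 85 higher and 0 lower in Y537S, 1 and 1 in K303R, and 2 and 0 in WT. Over all well-covered regions the shares were 0.434% and 0.476% in Y537S, 5.28% and 2.37% in K303R, and 3.38% and 1.81% in WT.

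The profile of mean log2 level over the 6 libraries was compared between ESR1 and 13350 protein-coding genes. The nearest were MRPS18A and PXDC1, both on chromosome 6, with root mean square differences of 0.0250 and 0.0331, then PTCD3 on chromosome 2 (0.0368), and FABP12 and FABP4 on chromosome 8 (0.0378), against a median of 0.287 over all genes. FABP12, FABP4, FABP9 and PMP2 share the same 8 regions and are thus equal; with PTCD3 they are the nearest 5 outside chromosome 6. Of the nearest 100 genes, 31 were on chromosome 6, as were 648 of the 13350 compared. Genes that share regions were each counted, so these are not counts of separate loci.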

How the data were processed

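Peaks were called separately in each library on build hg38. Tools named in the submitters' processing notes, without versions, are MACS2, Bowtie2, bedtools, SAMtools and Picard. Control library and peak threshold: not given in the sources used here. Sequencing depth is unknown. Each deposited list holds the authors' own fold (ratio to local background), the −log10 values of p and q, and a score. The score was not used.

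The fold, (fragments + 1) over (background + 1), and the Poisson p-value were solved together for the summit fragments; the deposited p was matched within 0.01% for 100% of peaks. This solution was tested on simulated data, as were the calls. Peaks of the 6 lists overlapping by 1 bp were merged. Gene spans came from RefSeq (GRCh38.p14). With 1 library per group no p-value was computed. Intervals are exact binomial ones, except those for the difference of an E2 ratio between a mutant and WT. The latter are normal approximations on the log scale. All intervals cover counting error only. Named regions are the 10 strongest well-covered ones, every called one, the one nearest the 5′ end and the 5 strongest of 1 receptor. Like genes are the 5 nearest, and the 5 nearest outside chromosome 6, by root mean square difference, with at least 3 well-covered regions and no overlap with the ESR1 window. The members, lists and rules were chosen with earlier results of these data known. Python 3.11.15, numpy 2.4.6, scipy 1.17.1, pandas 2.3.3 and matplotlib 3.10.9 were used. Alternatives changed the window, q limit, merging, scaling, coverage limit, fold limit and interval.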

Additional observations from a re-analysis of the deposited data

How the results depend on the processing

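No paired analysis was possible because each group has 1 library. With the span alone, listed peaks numbered 18 with E2 and 20 without E2 in Y537S, 17 and 16 in K303R, and 22 and 20 in WT, with 30 merged regions, and the Y537S over WT median log2 ratio with E2 was −0.13. With a −log10 q of at least 10, Y537S without E2 kept 20 peaks, K303R without E2 21, WT with E2 25 and the merged set 36. Scaling by the lowest local background shifted the median of all regions by 0.36 (log2) for E2 in K303R, by 0.12 with E2 and 0.22 without E2 for Y537S over WT, and by −0.39 for K303R over WT without E2. Under it the summed log2 ratio at ESR1 was 0.39 for E2 in K303R, −0.15 for Y537S over WT without E2 and −0.29 for K303R over WT without E2. The median for Y537S over WT without E2 was −0.055, and the calls were 2 higher for E2, 2 higher in Y537S, and 3 higher and 4 lower in K303R. With a mean of at least 20 fragments, 1 region was called lower for E2. With at least 100, 3 regions are left: K303R over WT summed to −0.28 with E2 and −0.18 without E2, and calls were 0 higher for E2, 0 higher and 2 lower in Y537S, and 0 higher and 1 lower in K303R. On the authors' fold, Y537S over WT summed to −0.054 with E2 and −0.048 without E2, with medians of −0.011 and −0.082, and the region at −40.3 kb with E2 turned to 0.15. Calls were then 0 higher and 1 lower for E2, 0 higher and 1 lower in Y537S, and 2 higher in K303R. Centred on chromosome 6, Y537S over WT summed to −0.032 with E2 and −0.023 without E2, with 2 regions higher and 2 lower. Centred within 5 Mb it summed to −0.16 and −0.23, with 2 higher, and K303R over WT to 0.23 and 0.24. A 2-fold limit left 0 higher for E2, 0 higher and 2 lower in Y537S, and 1 higher in K303R. A 95% interval gave 2 higher and 1 lower for E2, 2 higher in Y537S and 2 lower in K303R. Without the region at 1.58 kb, chosen as an alternative after seeing the data, K303R had 3 higher. Beyond the stated construction of each setting, the cause was not tested. Merging only peaks that share 50% of the shorter one, a window of 50 kb and a −log10 q of at least 5 moved no main result. Regions with few fragments limit precision: at 15 against 63 fragments the interval spans 0.120 to 0.402.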
